A study of Homo sapiens with 8 samples.

Results

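The 10 genes described here encode secreted signals of inflammation whose mRNAs carry AU-rich elements: the chemokines CXCL1, CXCL2, CXCL3, CXCL5, CXCL6, CXCL8, CCL2 and CCL20, and the interleukin-1 cytokines IL1A and IL1B. They were chosen because the RNA-binding protein KHSRP is known to destabilise cytokine mRNAs of this kind, and every array probe whose RefSeq accession belongs to one of them was taken, which gave 12 of the 42405 probes and 10 of the 20249 named genes on the array. The RNA came from KYSE850 cells, a human line established from esophageal squamous cell carcinoma (ESCC). In 4 samples the cells had received a control siRNA and in 4 samples siRNA against KHSRP, and each sample was read on its own one-colour microarray. Such short interfering RNAs pair with a matching mRNA and lead to its destruction. The labels give no other treatment, do not name the KHSRP siRNA used for each sample, and do not say whether samples of a group were separate cultures, so the p-values measure the spread between these samples, which may be technical. All 8 samples share the single cell line.

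AU-rich elements are stretches of adenine and uracil in the part of an mRNA that follows the coding sequence. KHSRP binds them and brings in enzymes that shorten the poly(A) tail and degrade the mRNA, so that such messages are usually short-lived. CXCL1, CXCL2, CXCL3, CXCL5, CXCL6 and CXCL8 signal through the receptor CXCR2 and attract neutrophils. CCL2 attracts monocytes through CCR2, and CCL20 attracts CCR6-bearing lymphocytes and dendritic cells. IL-1α and IL-1β, the products of IL1A and IL1B, signal through the same receptor, and in squamous epithelium IL-1α is held in cells as a ready alarm signal. Transcription of these genes is driven by NF-κB and AP-1.

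The CXCR2-binding chemokines lie together on chromosome 4 in GRCh38.p14, from CXCL8 (start 73740569) to CXCL2 (end 74099195). IL1A (112773925 to 112784493) and IL1B (112829751 to 112836779) are neighbours on chromosome 2, CCL20 lies elsewhere on chromosome 2, and CCL2 lies on chromosome 17. RefSeq promoter sequence (250 bases before to 50 after a gene start) was at hand for 9 of the 10 genes. The letters GGGAATTTC, a form of the NF-κB motif, were searched on both strands. They were found in 5 of these genes, which had 10 promoters, against 111 of 35116 promoters in all (0.316%). Several of the matching stretches are nearly identical to each other (below), so the 5 are not separate occurrences. Enrichment was not tested. The stretches around the match are shown because CXCL1, CXCL2 and CXCL3, whose levels moved together from array to array (below), share nearly the same letters there. Capitals mark the motif, and each sequence runs 5′ to 3′ along its gene.

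CXCL1, chr4:73869284-73869333, plus strand: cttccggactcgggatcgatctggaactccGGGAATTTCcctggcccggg
CXCL2, chr4:74099254-74099303, minus strand: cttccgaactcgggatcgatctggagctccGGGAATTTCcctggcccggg
CXCL3, chr4:74038749-74038798, minus strand: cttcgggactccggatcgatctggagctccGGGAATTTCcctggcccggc
CXCL5, chr4:73998749-73998798, minus strand: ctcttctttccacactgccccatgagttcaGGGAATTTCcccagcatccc
CXCL6, chr4:73836558-73836607, plus strand: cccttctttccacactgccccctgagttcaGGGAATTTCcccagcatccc

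The motif began 78 or 79 bases before the start in CXCL1, CXCL2 and CXCL3, and 90 or 91 bases before it in CXCL6 and CXCL5. Over these 50 bases CXCL1 and CXCL2 were identical at 48 positions, and CXCL3 matched each of them at 46. CXCL5 and CXCL6 were identical at 48 positions, whereas only 21 to 24 were shared between the 2 sets of genes. The AP-1 motif TGACTCA, searched on both strands, was found in the promoters of IL1A and CXCL8, and in 1738 of the 35116 promoters (4.95%). IL1A held a match on each strand, with 1 copy read on the opposite strand as TGAGTCA, and its stretch is shown because it is the member whose change passed the test when arrays were paired.

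IL1A, chr2:112784441-112784510, minus strand: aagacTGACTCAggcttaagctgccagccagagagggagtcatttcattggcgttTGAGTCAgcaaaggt

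RefSeq lists 2 starts for IL1A, and counted from these the first copy begins at -105 or at -12. No member promoter at hand held both of these exact sequences, and other forms of either motif were not searched. None of these arrays measured binding or promoter activity, so the letters are given as a description only.

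Each array held 58717 spots other than controls, none of them saturated, and 45.1% to 49.4% of the probes were well above background by the scanner software's own criterion. Slide 1 carried replicates 1 and 2, and slide 2 replicates 3 and 4, of control siRNA and KHSRP siRNA alike. Levels are log2 signals relative to the 75th percentile of the array, so that 0 is the signal at that percentile, and a probe's level was compared only with its own level on other arrays. KHSRP itself checked the labels. At its brighter probe, A_23_P16157, the control arrays lay between 5.81 and 6.39 and the KHSRP siRNA arrays between 2.52 and 2.88, a fall of 10.4-fold (limma adjusted p = 5.95e-05). All 10 epithelial markers looked up were tested. They are called squamous markers below (among them KRT5, TP63 and DSG3), but CDH1 and EPCAM are more general epithelial markers. Of 10 white blood cell markers, 8 had a named probe and 2 (CD68 and CD14) were bright enough to test. So were 1 of 7 fibroblast markers (COL1A1) and 0 of 5 endothelial markers. PTPRC, the defining white blood cell marker, was well above background on at most 4 of the 8 arrays at any of its 5 probes.

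The same-numbered arrays of both groups varied together once the numbers were taken from the deposited series matrix, where KHSRP siRNA 3 and 4 hold each other's scanner values. Therefore every result was computed without pairs, which is the main test, and with the pairs as a block. The pairs were control 1 with KHSRP siRNA 1, control 2 with KHSRP siRNA 2, control 3 with KHSRP siRNA 4, and control 4 with KHSRP siRNA 3, by the numbers of the scanner files. Which of the numberings is right could not be settled from the files, and the paired values below rest on that of the series matrix. That numbering was taken because its pairs varied together in these same data, a choice that in itself narrows the paired spread. The paired p-values are therefore no independent support for a change.

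The arrays measured 6 of the 10 genes well enough for a comparison. Of the 12 probes, 7 were well above background on all 8 arrays: both probes of CXCL1, both of CXCL2, and those of CXCL3, IL1A and IL1B. CCL2 was well above background on all 4 control arrays but on only KHSRP siRNA replicates 1 and 4. CXCL5 was so on 5 arrays. CXCL6, CXCL8 and CCL20 were not well above background on any array. The 8 probes, for 6 genes, that were well above background on all arrays of at least 1 group were tested.

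**Figure D1:**
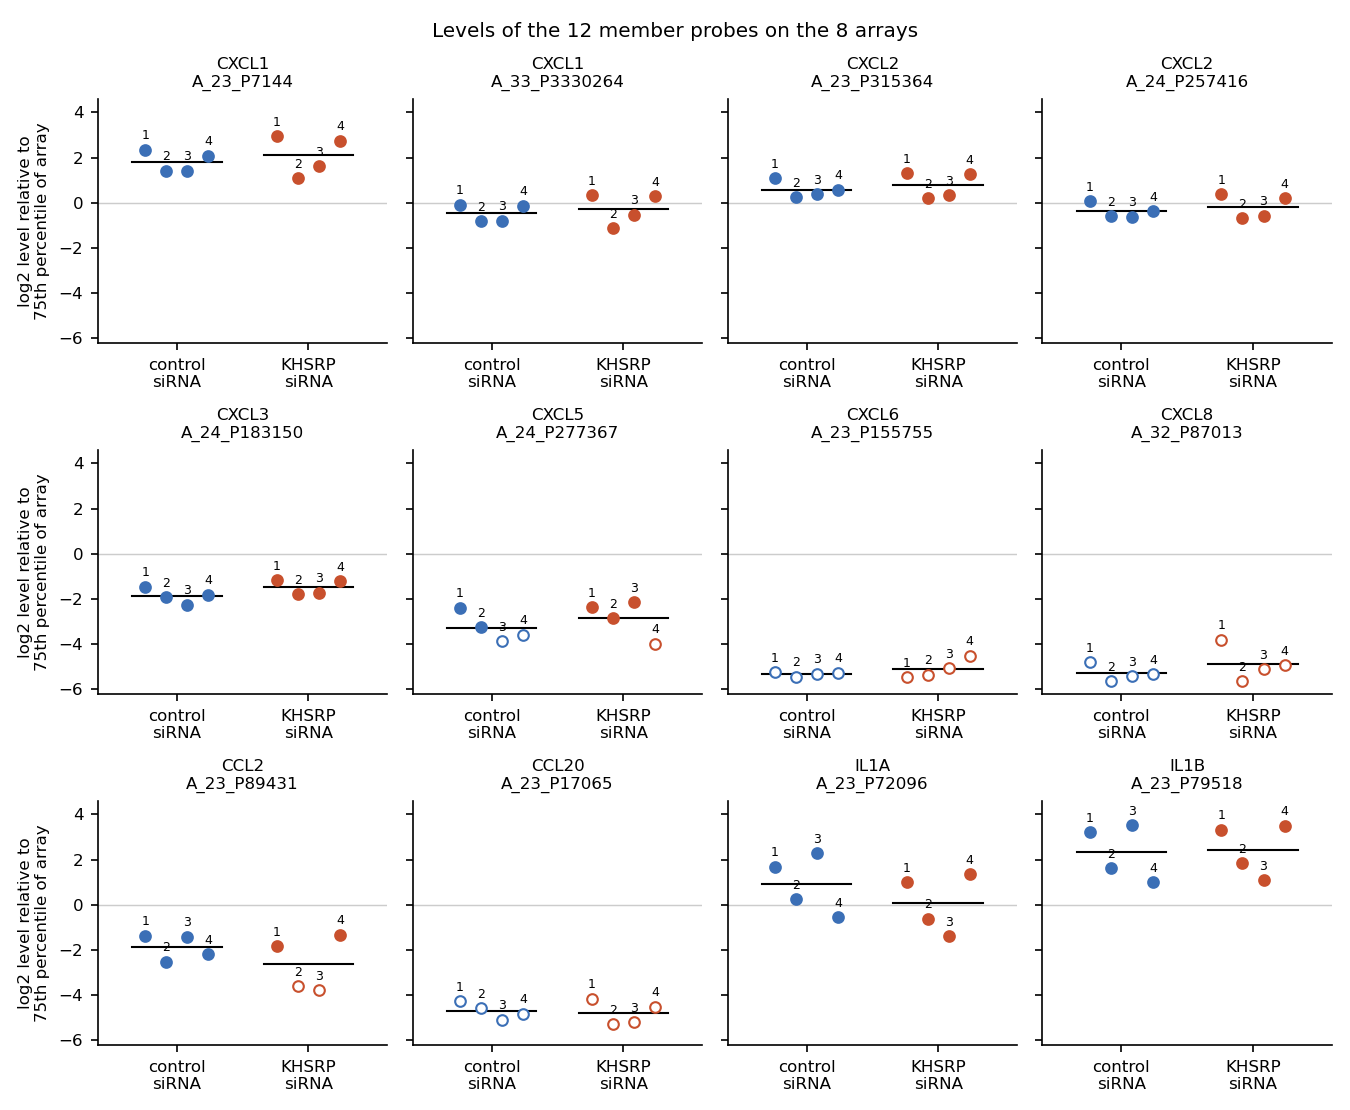
Log2 level (y axis, relative to the 75th percentile of the array) of each of the 12 member probes on each array, with control siRNA in blue and KHSRP siRNA in orange; numbers are replicates, black lines are group means, and open circles are not well above background. The groups overlap at every tested probe, and CXCL6, CXCL8 and CCL20 show open circles only.

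CXCL1 encodes a neutrophil attractant first found as a melanoma growth factor. At probe A_23_P7144 its level was 2.35, 1.43, 1.42 and 2.08 on control arrays 1 to 4, and 2.94, 1.096, 1.61 and 2.75 on KHSRP siRNA arrays 1 to 4. The KHSRP siRNA values thus reached both above and below all control values, with replicates 1 and 4 high and replicate 2 lowest. The log2 difference was 0.28 (SE 0.43, 95% interval -0.70 to 1.27), with a limma adjusted p of 0.816. It ranged from 0.0018 without KHSRP siRNA replicate 1 to 0.62 without KHSRP siRNA replicate 2. The second CXCL1 probe, A_33_P3330264, spanned -0.82 to -0.09 with control siRNA and -1.12 to 0.34 with KHSRP siRNA, a difference of 0.20 (adjusted p = 0.841).

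CXCL2, a close relative of CXCL1 with the same receptor, gave the same picture at a smaller range. Its probe A_23_P315364 read 1.09, 0.24, 0.40 and 0.58 with control siRNA and 1.31, 0.22, 0.35 and 1.27 with KHSRP siRNA. Again KHSRP siRNA replicates 1 and 4 were highest, and replicates 2 and 3 lay near the lowest controls. The difference was 0.21 (SE 0.30, 95% interval -0.48 to 0.90, limma adjusted p = 0.799), and the other probe, A_24_P257416, gave 0.22 (adjusted p = 0.769). Without the same KHSRP siRNA replicates, 1 and 2, the difference at the first probe was 0.038 and 0.40.

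CXCL3, the third member of this trio, encodes a further ligand of the same receptor. Its levels were -1.46, -1.91, -2.25 and -1.81 with control siRNA and -1.17, -1.80, -1.72 and -1.21 with KHSRP siRNA. KHSRP siRNA replicates 1 and 4 stood above all controls, and the others fell within the control range. The difference was 0.38, or 1.30-fold (SE 0.21, 95% interval -0.11 to 0.87), which did not pass the test (limma adjusted p = 0.391, exact permutation p = 0.143, two-sided). In the pairs the difference was 0.29, 0.11, 1.04 and 0.09, higher in 4 of 4, yet the paired fit did not pass either (adjusted p = 0.153). The slides gave 0.20 and 0.57 for CXCL3, 0.13 and 0.43 for CXCL1, and 0.10 and 0.32 for CXCL2 at the probes read out per array, in the same direction on both slides. The mRNAs of CXCL1, CXCL2 and CXCL3 are very similar in sequence, and how far their probes take up each other's message was not tested, so these are not certain to be separate measurements.

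CXCL5, another neutrophil attractant, was listed at -2.38, -3.25, -3.87 and -3.58 with control siRNA and at -2.37, -2.84, -2.15 and -3.98 with KHSRP siRNA. Control replicates 3 and 4 and KHSRP siRNA replicate 4 were not well above background, so no test was made. CXCL8, the classical AU-rich chemokine message that encodes interleukin-8, lay between -5.64 and -3.80 on all arrays at its only probe, and CXCL6 between -5.47 and -4.50. Neither was well above background on any array, so the size of a change in them was not measured here. The same held for CCL20, between -5.29 and -4.15.

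CCL2 encodes the main attractant of monocytes. Its levels were -1.37, -2.52, -1.41 and -2.19 with control siRNA, and -1.83, -3.59, -3.77 and -1.32 with KHSRP siRNA. KHSRP siRNA replicates 2 and 3, the lowest of all 8, were not well above background, whereas KHSRP siRNA replicate 4 was the highest. The log2 difference was -0.75 (SE 0.58, 95% interval -2.07 to 0.57), with a limma adjusted p of 0.561. In the pairs it was -0.45, -1.07, 0.085 and -1.57, lower in 3 of 4, and the paired fit gave an adjusted p of 0.0880. The size of this difference rests on how dim signals are corrected, since normexp background correction brought it to -0.13, and it was -0.37 without KHSRP siRNA replicate 3 and -1.19 without KHSRP siRNA replicate 4. The slides gave -0.76 and -0.74.

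IL1A was 1.78-fold lower with KHSRP siRNA, which passed the test only when arrays were paired, by the series matrix numbers. Its levels were 1.69, 0.25, 2.28 and -0.54 with control siRNA and 0.99, -0.61, -1.39 and 1.36 with KHSRP siRNA. Control replicates 1 and 3 and KHSRP siRNA replicates 1 and 4 were high, the other 4 arrays were low, and the groups overlapped broadly. Without pairs the log2 difference of -0.83 was smaller than the spread within the groups (SE 0.78, 95% interval -2.60 to 0.94, limma adjusted p = 0.653, exact permutation p = 0.371, two-sided). In the pairs the difference was -0.70, -0.86, -0.92 and -0.85, lower in 4 of 4, with an SD of 0.096. The paired fit gave an SE of 0.068, a 95% interval of -1.001 to -0.66 and a limma adjusted p of 0.00200, so that IL1A reached 56.2% of its control level in this fit. With the pairs taken from the scanner files' own numbers instead, the adjusted p was 0.733. Slide 1 alone gave -0.78 and slide 2 alone -0.89. Unpaired and without single arrays, the difference ran from -0.34 (without KHSRP siRNA replicate 3) and -0.38 (without control replicate 3) to -1.25 and -1.32 (without KHSRP siRNA replicate 4 or control replicate 4).

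IL1B varied over the arrays as IL1A did, and its change passed the test in neither fit. Its levels were 3.21, 1.61, 3.52 and 0.99 with control siRNA and 3.32, 1.83, 1.09 and 3.51 with KHSRP siRNA. The same 4 arrays were high as for IL1A, and the ranges of the groups nearly coincided. The log2 difference was 0.11 (SE 0.72, 95% interval -1.53 to 1.74, limma adjusted p = 0.967). In the pairs it was 0.11, 0.22, -0.01 and 0.10. The paired interval ran from -0.06 to 0.27 (SE 0.068, limma adjusted p = 0.288), or 0.957-fold to 1.21-fold. That interval holds only for the pairs of the series matrix. Without pairs the interval ran from 0.347-fold to 3.33-fold. With the scanner files' numbers as a block, the limma adjusted p was 0.973.

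**Figure D2:**
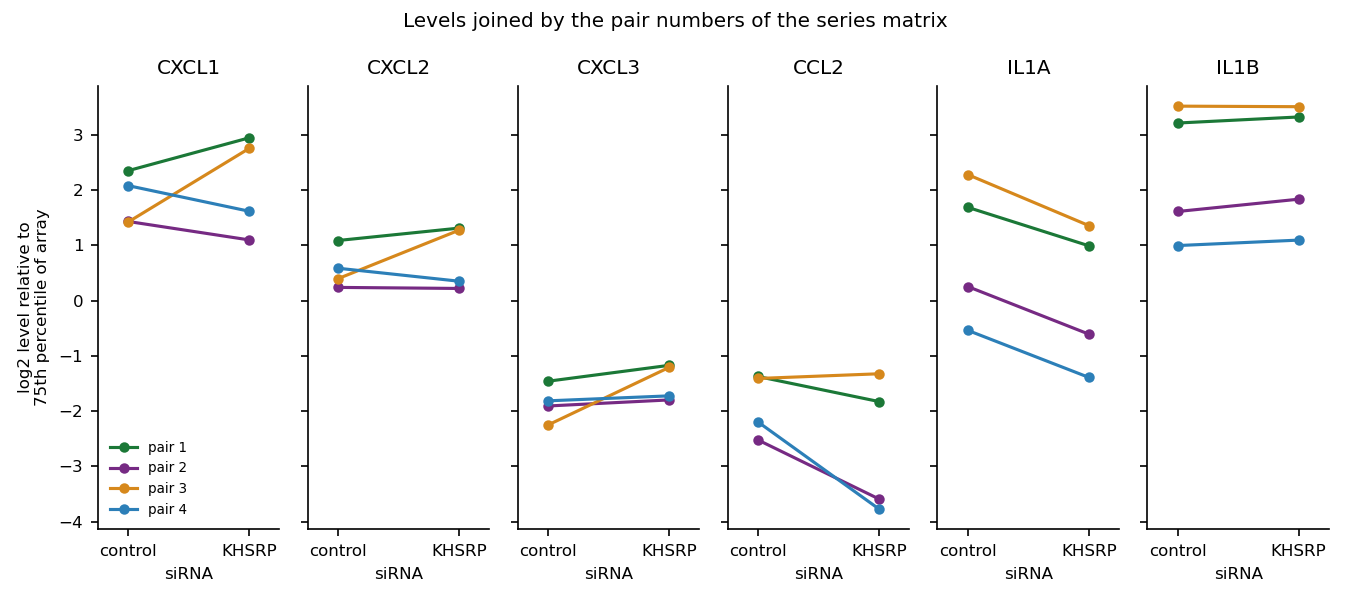
Log2 level (y axis, relative to the 75th percentile of the array) of 6 member genes at the probe with the highest mean level, with lines joining the control siRNA and KHSRP siRNA arrays that carry the same number in the series matrix. IL1A falls along all 4 lines by 0.70 to 0.92, the IL1B lines are nearly level, and the CXCL1 lines go up in pairs 1 and 3 and down in pairs 2 and 4.

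Counted together, 0 of the 8 tested member probes were called, that is, had an adjusted p under 0.05 in the limma fit without pairs, and 0 had an unadjusted p under 0.05. Over all 18761 tested probes 5.54% were called, with 3677 at an unadjusted p under 0.05. At 0 of the 8 member probes did the groups fail to overlap, against 14.8% of all tested probes. With pairs as a block, 1 of the 8 member probes was called (IL1A), against 30.1% of all tested probes. In that fit 2 member probes had an unadjusted p under 0.05 (IL1A and CCL2), against 8145 of all 18761 tested probes. CCL2 entered the test through its control arrays alone and was not well above background on 2 KHSRP siRNA arrays. The difference had the same sign in all 4 pairs at 2 member probes (IL1A and CXCL3), against 50.7% of all tested probes. The median log2 change of the 6 member genes was 0.16, with 4 higher and 2 lower, beside 0.01 over all 12125 tested genes. Leaving out single arrays moved this median between -0.10 and 0.40, so its sign depended on which arrays were kept.

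**Figure D3:**
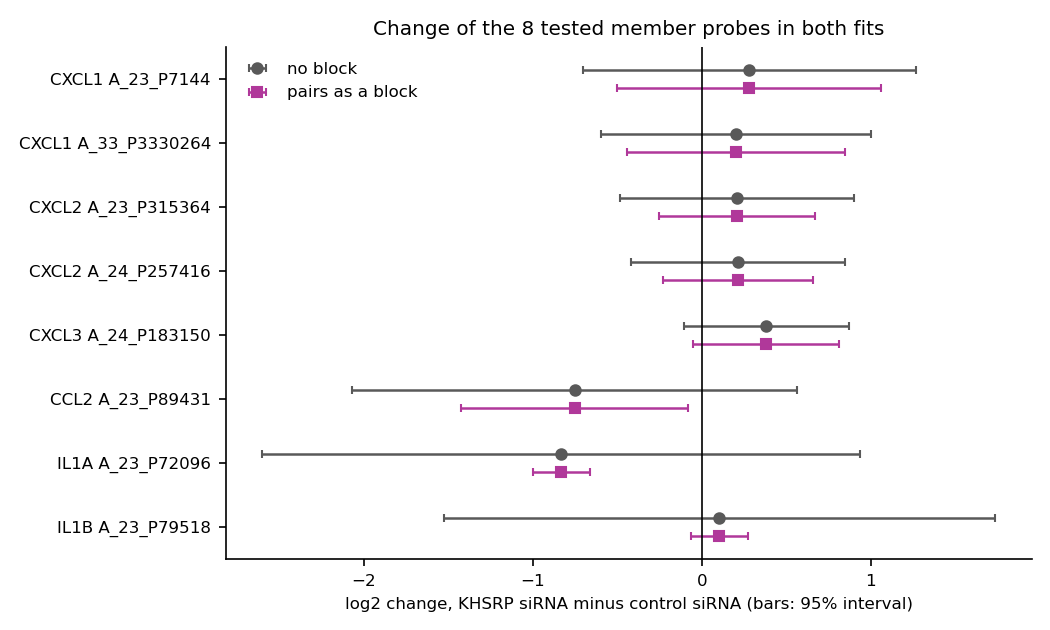
Log2 change (x axis, KHSRP siRNA minus control siRNA) of the 8 tested member probes with its 95% interval, without pairs (grey circles) and with pairs as a block (purple squares). Without pairs every interval crosses 0, and with pairs those of IL1A and CCL2 do not; that of CCL2 rests on 2 KHSRP siRNA arrays that were not well above background.

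Several of these genes spread widely between arrays of a group. The SD within groups was 1.30 log2 units for IL1A and 1.195 for IL1B, beside a median of 0.26 over all tested probes. These lie at the 99.3rd and 98.7th percentile of tested probes. In all, 4 of the 8 member probes exceeded the 90th percentile of 0.61, one of them CCL2, whose lowest values were not well above background. From its lowest to its highest array IL1A differed 12.7-fold, IL1B 5.74-fold and CXCL1 3.60-fold at its brighter probe. The spread was not particular to the members, since PYCARD and CASP1 (99.4th and 99.3rd percentile), CCL5 (99.0th) and the squamous keratin KRT5 (99.6th) varied as widely. By SD, CXCL3 was the steadiest of the tested members (0.33). Its range was 2.11-fold, beside 2.08-fold at the dimmer CXCL2 probe, A_24_P257416.

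On control replicates 3 and 4 only, deviations from the group mean differed in sign between the interleukins and the tested CXCR2-binding chemokines. IL1A and IL1B deviated alike on every array: control replicates 1 and 3 and KHSRP siRNA replicates 1 and 4 lay 0.77 to 1.36 above the group mean for IL1A and 0.88 to 1.18 above it for IL1B, and the other 4 arrays lay below. CXCL1 was instead above the mean on control replicates 1 and 4 and KHSRP siRNA replicates 1 and 4. Control replicate 3, which was the highest array for both interleukins, was 0.40 below the control mean for CXCL1, and control replicate 4, the lowest control array for both, was 0.26 above it. CXCL2 and CXCL3 had the signs of CXCL1 on all 8 arrays, but on control replicate 4 they lay at the mean (0.0084 and 0.044 above it). CCL2 had the signs of the interleukins on all 8. In size its deviations followed CXCL2 (Pearson r = 0.88) as closely as IL1A (r = 0.89), as a description over the same 8 arrays. Both values rest in part on KHSRP siRNA replicates 2 and 3, where CCL2 was not well above background. The value with IL1A also carries the split of the arrays into high and low ones for the interleukins. Because the arrays separate into high and low ones for IL1A and IL1B, a correlation between the 2 genes would mostly restate that split, and it is not given.

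The mean level of the 10 squamous markers moved with the interleukins, and 8 of the 10 had the signs of IL1A on all 8 arrays. The mean was 3.46, 2.27, 3.70 and 1.90 on control arrays 1 to 4 and 3.52, 2.26, 1.70 and 3.78 on KHSRP siRNA arrays 1 to 4, high on the same 4 arrays as IL1A and IL1B. EPCAM went the other way, with 4.198, 4.56, 3.68 and 4.71 on the control arrays and 3.88, 4.33, 4.52 and 3.66 on the KHSRP siRNA arrays, and CDH1 had the sign of IL1A on 7 of 8. Of the 2 white blood cell markers tested, CD68 had the signs of IL1A on all 8 arrays and CD14 on 7. The fibroblast marker COL1A1 went the other way, with -2.12, -1.40, -2.45 and -1.48 on the control arrays and -2.001, -1.52, -1.14 and -2.52 on the KHSRP siRNA arrays. The part of this variation in the results for IL1A and IL1B was not tested. In RNA from whole cultures, fewer cells expressing a gene and less of its RNA in each cell cannot be told apart.

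**Figure D4:**
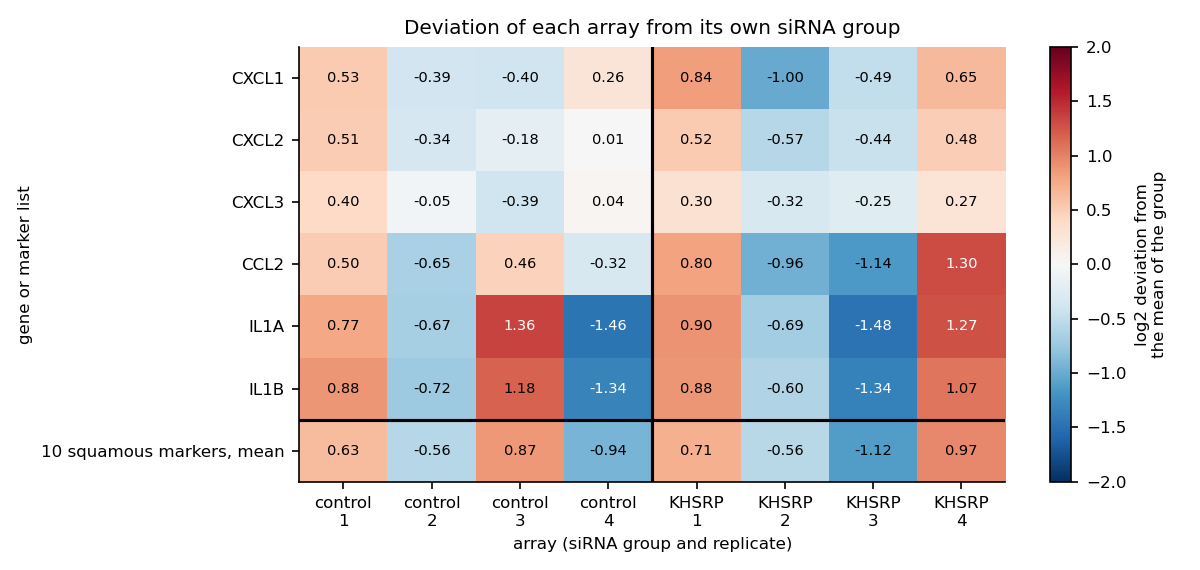
Deviation of the log2 level on each array (columns) from the mean of its own siRNA group, for 6 member genes and for the mean of 10 squamous markers (rows); red is above and blue below the group mean. IL1A, IL1B, CCL2 and the mean of the squamous markers have the same signs on all 8 arrays. CXCL1, CXCL2 and CXCL3 differ from them on control replicates 3 and 4. CCL2 was not well above background on KHSRP siRNA replicates 2 and 3.

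Over the 8 arrays, the gene outside the members whose level was most like that of each was KIFAP3 for IL1A (Pearson r = 0.997), DENND2B for IL1B (r = 0.998), SMARCC2 for CCL2 (r = 0.985), POMP for both CXCL1 and CXCL2 (r = 0.948 for each), and FTH1 for CXCL3 (r = 0.927). All genes share the same 8 arrays and, for the interleukins, the same high and low ones, so these values are a description only. IL1A had 592 and IL1B 876 of the 12119 genes compared at an r over 0.9, and CCL2 had 116. CXCL1 had 5, CXCL2 10 and CXCL3 4.

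The genes around the members were looked up in 6 lists, ordered here from receptors to targets. The paired calls below use the series matrix numbers. With the scanner files' numbers as a block instead, 0 genes of each list were called. Of 12 receptors and antagonists, 5 were tested and 1 was called, beside 5.54% of all tested probes. This was IL1R1, the receptor through which IL-1α and IL-1β signal. Its levels were -1.94, -1.51, -2.41 and -1.73 with control siRNA and -2.71, -3.05, -2.55 and -2.82 with KHSRP siRNA, without overlap. The log2 difference was -0.88 (SE 0.20, limma adjusted p = 0.0444, or 0.0189 with pairs). However, the probe entered the test through its control arrays, and only 2 of the 4 KHSRP siRNA arrays were well above background. The call and its size are therefore no firm measure. With probes well above background on all 8 arrays IL1R1 was not tested and 0 genes of this list were called. The call was lost in 16 of 22 alternative settings, and normexp background correction brought the difference to -0.19. IL1RAP, its co-receptor, and SIGIRR, an inhibitory receptor of the family, had changes of -0.50 and -0.30. Both were called with pairs only (limma adjusted p = 0.00639 and 0.0164). With pairs 3 of the 5 genes of this list were called, all lower, beside 30.1% of all tested probes. A second IL1RAP probe gave 0.14 (adjusted p = 0.946; 0.234 with pairs). CXCR1 and CXCR2, which bind CXCL8 and its relatives, and CCR2, the receptor of CCL2, were not bright enough to test.

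Of 12 genes that process and release interleukin-1, 10 were tested and 0 were called (1 had an unadjusted p under 0.05), with a median change of 0.07. With pairs 4 of the 10 were called, all higher, beside 30.1% of all tested probes. Among these were PYCARD, the adaptor of the inflammasome, with a change of 0.52 (adjusted p = 0.813; 0.00668 with pairs), and GSDMD, which forms the pore through which IL-1β leaves the cell, with 0.52 (0.184; 0.0416 with pairs). CASP1, the protease that cuts the IL-1β precursor, had a change of 0.36 (0.884; 0.0115 with pairs). PYCARD and CASP1 had group SDs of 1.30 to 1.34, as wide as those of IL1A. Of 8 other ligands of the interleukin-1 family only IL18 was tested, with a change of 0.32 (0.464; 0.0273 with pairs).

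Of 18 genes that lead from MyD88 to NF-κB, 17 were tested and 0 were called, nor had any an unadjusted p under 0.05, and their median change was 0.01. With pairs 2 of the 17 were called, beside 30.1% of all tested probes, both lower: IKBKG, the regulatory subunit of the IκB kinase, with -0.41 (0.515; 0.00887 with pairs), and IKBKB, a catalytic subunit, with -0.32 (0.313; 0.0358 with pairs). TRAF6, the ubiquitin ligase above that kinase, had a change of 0.24 and was called in neither fit (0.271; 0.0698 with pairs).

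Of 12 genes that NF-κB induces and that mostly feed back on it, 10 were tested, 0 were called and 1 had an unadjusted p under 0.05, with a median change of 0.06. SOD2, the mitochondrial superoxide dismutase, had a change of 0.41 and was called with pairs (0.189; 0.0167 with pairs). BIRC3 and TNIP1 had changes of -0.11 and 0.11 and were called in neither fit. Of 22 other cytokines and chemokines, 20 had a named probe, 10 were tested and 0 were called. None of the 10 had an unadjusted p under 0.05, and their median was 0.15. CCL5, a T cell attractant, had a change of 0.78 (0.659; 0.0465 with pairs), CXCL14 0.71 (0.666; 0.0525 with pairs) and CXCL16 0.45 (0.432; 0.00727 with pairs). In all, with pairs, 4 of these 10 were called, all higher, beside 30.1% of all tested probes. IL6 and TNF, AU-rich messages as well, were not bright enough to test. Unpaired, several of these changes turned on single arrays. Without 1 array at a time IL1RAP ran from -0.88 (without KHSRP siRNA replicate 4) to -0.12 (without control replicate 3), PYCARD from 0.010 (without control replicate 4) to 1.08 (without KHSRP siRNA replicate 3), CCL5 from 0.34 (without KHSRP siRNA replicate 1) to 1.29 (without KHSRP siRNA replicate 3), CXCL14 from 0.24 (without KHSRP siRNA replicate 4) to 1.15 (without KHSRP siRNA replicate 3), and IKBKG from -0.60 (without control replicate 4) to -0.20 (without KHSRP siRNA replicate 3).

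**Figure D5:**
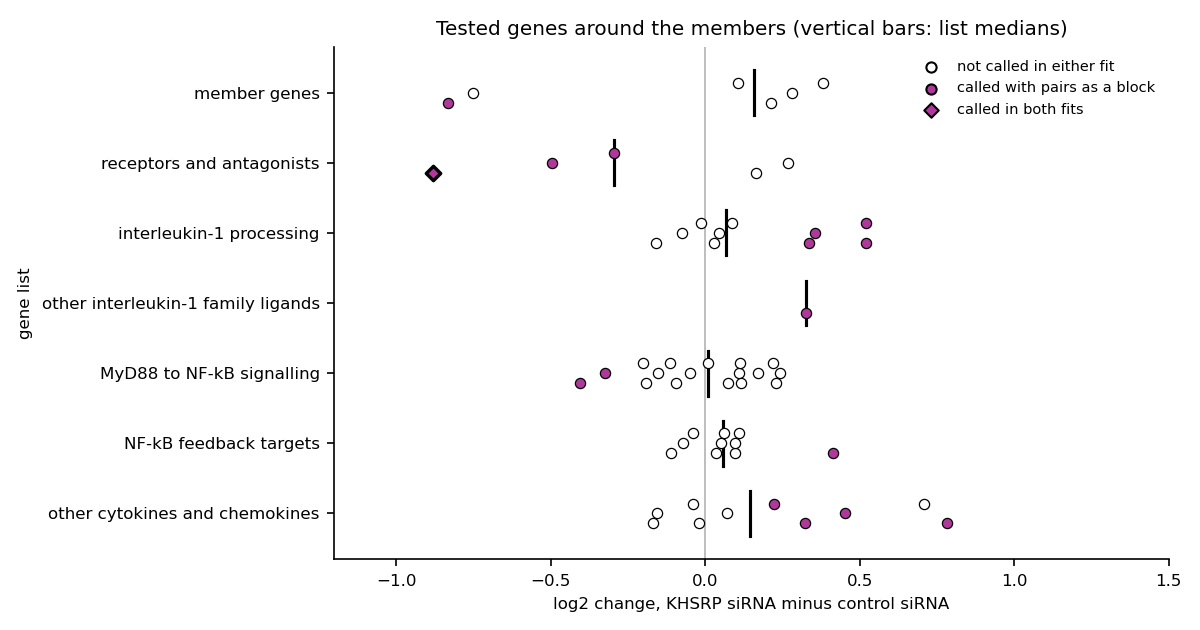
Log2 change (x axis, KHSRP siRNA minus control siRNA) of each tested gene of the 6 lists (rows) and of the member genes, with vertical bars at the medians. IL1R1, the diamond at -0.88, was called in both fits but was well above background on only 2 of its 4 KHSRP siRNA arrays; filled circles were called with pairs as a block only, and open circles in neither.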

How the data were processed

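Total RNA from 4 control siRNA and 4 KHSRP siRNA samples of KYSE850 cells was labelled with Cy3 and hybridised to Agilent arrays. The authors extracted spots with Agilent Feature Extraction (11.5.1.1 per the file headers, 12.6 per the labels' processing notes), and the deposited scanner values are linear fluorescence intensity, background-subtracted and detrended within each array. The authors also deposited a series matrix of log2 values, each array shifted to its 75th percentile and each gene then shifted by a constant that is not given (column medians -0.25 to 0.22). It was used as an alternative. Its columns KHSRP siRNA 3 and 4 matched each other's scanner files (r = 1.00 over probes, against -0.14 with their own). The number of arrays limits the precision.

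Spots marked as outliers and control spots were left out, spots of a probe were averaged as log2 intensity, and the 75th percentile of the array was subtracted. A probe entered the test if all 4 arrays of a group had a share of 0.5 or more of its spots well above background. For a gene with several tested probes, that with the highest mean level stood for it. Symbols came from RefSeq accessions (GRCh38.p14), for 64.2% of probes. The comparison of groups used lmFit and eBayes of limma 3.58.1 (R 4.3.3), two-sided, and all tested probes shared the Benjamini-Hochberg adjustment. Pairing was checked by the correlation of deviations from the group means between same-numbered arrays: 0.52, 0.43, -0.67 and -0.64 by scanner file numbers, and 0.52, 0.43, 0.83 and 0.84 by series matrix numbers. The latter were used as a block. The fit without pairs was tested on simulated data with independent noise for each probe. Those data lack the variation that genes shared on these arrays, and the paired fit was not simulated.

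All members were named, and from each list the called genes and those with the largest change, up to 3. The members, lists and tests were chosen with earlier results of these data known, so no p over a list is given. Alternatives covered the scaling, background correction, filter, slide, block, variance model, Student test and each array left out.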

Additional observations from a re-analysis of the deposited data

Results flagged for a closer look

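At the dimmer KHSRP probe, A_24_P134235, control siRNA replicate 2 lay apart from the other control arrays, at a level of -1.86 with the nearest at -1.10; the gap made up 0.832 of the range of the group. About 1 group in 20 would stand out so by chance. This was the only one among the 52 groups of 4 arrays looked at, for the tested members, KHSRP and the named genes of the lists. It is thus no more than chance would give. The probe was well above background on all 4 control arrays and on 0 KHSRP siRNA arrays. Its fitted log2 difference was -2.67 (limma adjusted p = 0.0147). A bound of at least 5.83-fold higher with control siRNA came from the lowest signal well above background on each KHSRP siRNA array. That signal, over all probes, stood in where it was higher than the probe's own. The bound holds for the main background correction only, since normexp gave a log2 difference of -0.54 (limma adjusted p = 0.0930).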

How the results depend on the processing

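In 22 of 23 alternative settings 0 member probes were called, and the replicate block by the series matrix numbers, which pairs the arrays, called 1 (IL1A). With the replicate block by the scanner files' numbers 0 were called. That block changes the residual spread and not the differences themselves. The fall of KHSRP kept its size within slide 1 (-3.37, adjusted p = 0.190) and within slide 2 (-3.37, adjusted p = 0.777) but missed the threshold there, with 2 arrays against 2. Over all tested probes, calls numbered 1039 in the main fit, 570 after scaling to the median, 319 of 42405 probes with no filter, 156 with the scanner file numbers as a block, 5644 with those of the series matrix, 0 within either slide (2112 and 1022 at an unadjusted p under 0.05) and 489 to 766 without single arrays. IL1B turned to -0.043 with array weights, and ranged from -0.34 to 0.55 without single arrays. BIRC3 turned to 0.074 within slide 2 and ranged from -0.32 to 0.11 without single arrays, CASP1 from -0.17 to 0.88 and TNIP1 from -0.0034 to 0.23. No other member, and no other gene named from the lists, changed direction in the settings run. The median change of the members lay between -0.10 and 0.40 without single arrays; it was below 0 without control siRNA replicate 2 or 4 or KHSRP siRNA replicate 1 or 4. The Student test that the methods name had 3710 probes under its threshold and 1081 after Benjamini-Hochberg adjustment, with 0 member probes in either count. Signal over background limits what can be said of CXCL5, CXCL6, CXCL8, CCL20 and, with KHSRP siRNA, CCL2.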
